A study of Caenorhabditis elegans with 23 samples.

Results

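The mRNA of *C. elegans* carrying an older deletion allele of *sid-1* was compared with the mRNA of the same mutant rescued by a transgene. The 2 strains were FX02700, *sid-1(tm2700)*, and FX15992, *sid-1(tm2700); tmIs1005[sid-1(+)]*, with 2 libraries each, and these 4 libraries were chosen by strain from the 23 libraries of the series. Both strains thus carried the *tm2700* deletion, and the rescued strain also carried the integrated array *tmIs1005*, which according to the study's strain list holds wild-type *sid-1* and a *vps-45* minigene. PolyA+ RNA came from mixed-stage animals of both strains, grown without starvation, and the sample labels record liquid culture whereas the study's methods describe washing animals from 10 plates. Further libraries used here were *sid-1(qt9)*, a nonsense allele, and wild type, with 2 libraries each from the same set, and, from plate-grown sets with 3 libraries per strain, the deletion *sid-1(jam113)* and the nonsense allele *sid-1(jam80)*, each with its own wild type. Each genotype was represented by 1 strain, so the effect of *sid-1* on the array, the effect of *vps-45* on the array and any other difference between the 2 strains cannot be told apart.

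SID-1 is a membrane protein that admits double-stranded RNA into the cytosol, where Dicer cuts it into small RNAs that direct Argonaute proteins to matching transcripts. Animals that lack it respond poorly to RNA interference between tissues, and silencing of germline genes by ingested or neuronal double-stranded RNA needs it. VPS-45 is a Sec1/Munc18-family protein of endosomal trafficking, and a *vps-45* rescue fragment can serve as the selection marker when arrays are integrated.

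In *sid-1(tm2700)*, *sid-1* RNA was present at 21.4 and 23.5 CPM (estimated counts scaled to normalised library size), against 51.9 and 44.5 CPM in the rescued strain. Wild type lay between them at 31.2 and 32.4 CPM. The levels of the 2 strains did not overlap, which was also true of 43.4% of all genes tested, and *sid-1* was lower in *sid-1(tm2700)* than in the rescued strain (log2 fold change -1.1 ± 0.12 SE, adjusted p = 1.24e-07). All adjusted p-values are those of Benjamini and Hochberg from quasi-likelihood tests fitted in edgeR over all genes tested. Every *sid-1* read was assigned to transcript C04F5.1.1, which had 4.53 and 4.97 TPM (a share of transcripts adjusted for length) in *sid-1(tm2700)*, against 10.05 and 8.25 TPM in the rescued strain. Counts per transcript do not show which exons the reads cover, so they do not check the deletion itself. Genes near *sid-1* on chromosome V (WBcel235, 5119970 to 5126916, plus strand) did not pass the threshold. *F14F9.5*, which begins just downstream, had 5.66 and 5.94 CPM in *sid-1(tm2700)*, against 6.07 and 6.0 CPM in the rescued strain (log2 fold change -0.06 ± 0.16, adjusted p = 0.937 by edgeR).

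The second gene on the array differed far more. *vps-45* had 20.1 and 20.8 CPM in *sid-1(tm2700)*, against 308.7 and 293.9 CPM in the rescued strain. *sid-1(qt9)*, at 20.2 and 18.7 CPM, and wild type, at 18.2 and 18.9 CPM, were close to *sid-1(tm2700)*. The log2 fold change was -3.88 ± 0.13 (adjusted p = 3.62e-22 by edgeR), a level 14.7-fold higher in the rescued strain. None of the 10 genes around *vps-45* on chromosome X (970583 to 974848, minus strand) passed the threshold, and the lowest adjusted p among them was 0.121 by edgeR, for *dgk-1*.

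**Figure D1:**
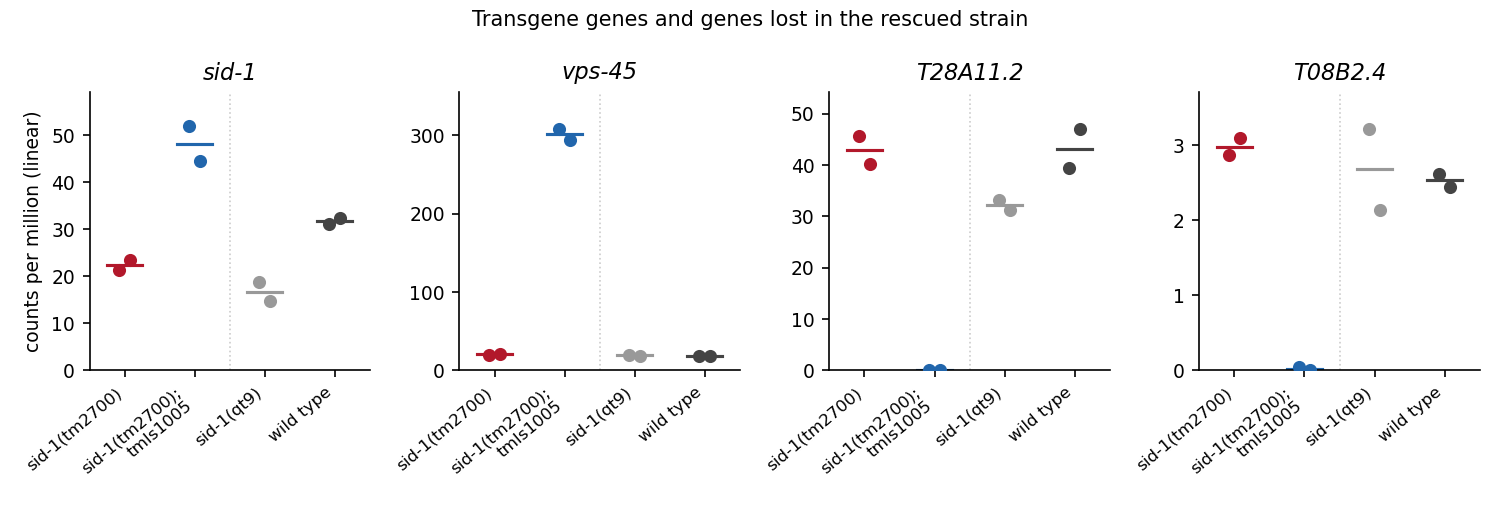
CPM (linear axis from 0) of *sid-1*, *vps-45*, *T28A11.2* and *T08B2.4* in *sid-1(tm2700)*, the rescued strain, *sid-1(qt9)* and wild type. Points are libraries and bars are means of 2 libraries. *vps-45* stands near 300 CPM in the rescued strain and near 20 CPM elsewhere, whereas *T28A11.2* and *T08B2.4* are at or near 0 only in the rescued strain among these 4 strains.

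Across the transcriptome 379 of 18293 genes tested (2.07%) changed at an adjusted p under 0.05 by edgeR. Of these, 252 (1.38% of genes tested) were higher in *sid-1(tm2700)* and 127 (0.694%) were lower. At an absolute log2 fold change of at least 1 as well there were 71 (0.388%), of which 43 were higher (0.235%) and 28 lower (0.153%). Total estimated counts were 25586154 and 23730774 in *sid-1(tm2700)*, against 22147631 and 25011726 in the rescued strain. The number of changed genes depended on single libraries. In each fit without 1 library the lone library of a strain was assumed to vary like the pair of the other strain. Without replicate 1 of *sid-1(tm2700)* it was 218, and without replicate 2 it was 110. Without replicate 1 of the rescued strain it was 1532, and without replicate 2 it was 476. With 2 libraries against 2, an exact permutation test of a single gene cannot give a two-sided p below 0.333, so all tests here pool information across genes.

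**Figure D2:**
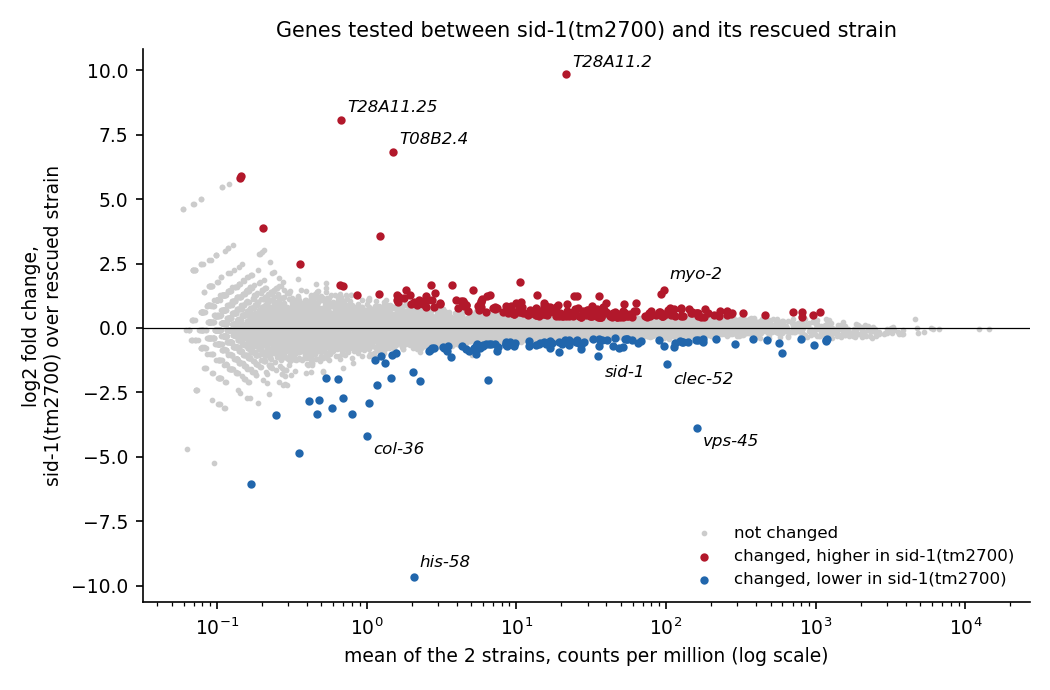
Log2 fold change of *sid-1(tm2700)* over the rescued strain against the mean level of the 2 strains in CPM (log axis), 1 point per gene tested. Red points changed and were higher in *sid-1(tm2700)* (252), blue points changed and were lower (127), grey points did not pass the threshold. The labelled *his-58* point is 1 of 2 entries with that name, which moved in opposite directions.

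The mRNA of 3 genes was present in *sid-1(tm2700)* and nearly absent from the rescued strain. *T28A11.2*, a protein-coding gene on chromosome V (3280379 to 3281167, plus strand) known here only by its sequence name, had 1213 and 963 reads in *sid-1(tm2700)*, against 2 and 0 reads in the rescued strain (ratio of levels 1040, 95% counting interval 288 to 8600; adjusted p = 5.49e-23 by edgeR). *T28A11.25*, the next gene at 3281823 to 3282702, had 41 and 28 reads in *sid-1(tm2700)*, against 0 and 0 reads in the rescued strain. It was therefore at least 22-fold higher in *sid-1(tm2700)*, taking 3 reads over both rescued libraries as the limit that a count of 0 allows (adjusted p = 4.95e-07 by edgeR). Both genes were present in the other strains of the set, *T28A11.2* with 733 and 815 reads in *sid-1(qt9)* and 1008 and 1058 reads in wild type. The flanking genes that were tested did not share the loss. *str-64*, directly after *T28A11.25*, was too scarce to be tested, with 2 and 2 reads in *sid-1(tm2700)*, against 1 and 1 reads in the rescued strain. *fbxa-64*, on one side, had 234 and 179 reads in *sid-1(tm2700)*, against 175 and 250 reads in the rescued strain. *F35F10.5*, on the other side, was the only other gene near them that changed, and in the opposite direction, with 73 and 55 reads in *sid-1(tm2700)*, against 94 and 112 reads in the rescued strain (log2 fold change -0.76 ± 0.20, adjusted p = 0.0292 by edgeR, above the threshold in each fit that left out 1 library of *sid-1(tm2700)*).

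The third such gene, *T08B2.4* on chromosome I (6224878 to 6226099, plus strand), had 76 and 74 reads in *sid-1(tm2700)*, against 1 and 0 reads in the rescued strain (ratio 143, 95% counting interval 25.4 to 5700; adjusted p = 1.25e-10 by edgeR). It was also present in wild type, at a mean of 2.53 CPM, and in *sid-1(qt9)*, at 2.68 CPM. Its changed neighbour *T08B2.11* was at 9.88 and 8.54 CPM in *sid-1(tm2700)*, against 4.61 and 5.80 CPM in the rescued strain (log2 fold change 0.82 ± 0.16, adjusted p = 0.0023 by edgeR, and 0.0902 without replicate 1 of *sid-1(tm2700)*). These counting intervals cover sampling of reads only.

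Some large fold changes belonged to pairs of related entries that moved in opposite directions. Histone genes exist in many near-identical copies, and how reads were assigned between the entries of a pair was not tested. An entry of the histone gene *his-58* had 0 reads in each *sid-1(tm2700)* library, against 74 and 126 reads in the rescued strain. The other entry of *his-58* was higher in *sid-1(tm2700)* (log2 fold change 1.67 ± 0.43, adjusted p = 0.029 by edgeR), a call lost in 4 alternative fits. That entry had 134 and 144 reads in *sid-1(tm2700)*, against 81 and 0 reads in the rescued strain. In wild type it had 0 and 60 reads, and in *sid-1(qt9)* 51 and 0 reads. Summed over both entries, *his-58* had 5.05 and 6.03 CPM in *sid-1(tm2700)*, against 7.08 and 4.88 CPM in the rescued strain, and these ranges overlapped. *C24H11.1* and *C24H11.2* also moved in opposite directions, by 3.56 and -2.07 on the log2 scale. *C24H11.1* had 78 and 38 reads in *sid-1(tm2700)*, against 9 and 0 reads in the rescued strain. For *C24H11.2* these were 0 and 43 reads, against 84 and 90 reads. The sum of *C24H11.1* and *C24H11.2* was 2.94 and 3.39 CPM in *sid-1(tm2700)*, against 4.25 and 3.48 CPM in the rescued strain, and these ranges did not overlap. The change of each of these 4 entries is thus uncertain.

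Genes of contractile muscle were higher in *sid-1(tm2700)*. Of 9 body muscle genes tested, 6 rose and none fell (median log2 fold change 0.57, against -0.003 over all genes tested). Of 6 pharyngeal genes 3 rose (median 0.55), the myosin genes *myo-2* and *myo-1* and also *abu-14*. The genes that rose were 66.7% and 50% of the lists, against 2.07% of all genes tested that changed. *myo-2*, a myosin heavy chain of pharyngeal muscle, had 106.0 and 178.4 CPM in *sid-1(tm2700)*, against 52.2 and 49.3 CPM in the rescued strain (log2 fold change 1.49 ± 0.15, adjusted p = 2.42e-08 by edgeR). *myo-1*, the other pharyngeal myosin heavy chain, had 98.3 and 168.8 CPM in *sid-1(tm2700)*, against 52.2 and 53.7 CPM in the rescued strain (1.34 ± 0.15, adjusted p = 3.13e-07 by edgeR). For both genes replicate 2 of *sid-1(tm2700)* was the higher of its pair, and both *sid-1(tm2700)* libraries lay above both rescued libraries.

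The body wall genes moved by less. *unc-54*, the major myosin heavy chain of body wall muscle, had 1178 and 1414 CPM in *sid-1(tm2700)*, against 901.5 and 780.9 CPM in the rescued strain. *myo-3*, the minor body wall myosin, had 197.0 and 259.5 CPM in *sid-1(tm2700)*, against 144.7 and 132.2 CPM in the rescued strain. The giant sarcomere proteins *unc-22* (twitchin) and *unc-89* (obscurin) rose by 0.96 ± 0.14 and 0.95 ± 0.13 on the log2 scale, and *unc-15* (paramyosin) by 0.49 ± 0.12. In a list of 10 myosins and giant muscle proteins assembled after these values were seen, all 10 rose (median log2 fold change 0.90). Their summed level was 2830 and 3560 CPM in *sid-1(tm2700)*, against 2190 and 1880 CPM in the rescued strain, with 3010 and 3550 CPM in *sid-1(qt9)* and 2650 and 2430 CPM in wild type. The lists that were drawn up in the same way for troponin and tropomyosin (4 of 10 rose, none fell) and for basement membrane and muscle attachment (8 of 18 rose, none fell) moved in the same direction. Among them, *tni-3* (troponin I) rose by 0.67 ± 0.11, *tnt-2* (troponin T) by 0.57 ± 0.12, *unc-52* (perlecan) by 0.75 ± 0.12 and *let-805* (myotactin) by 0.70 ± 0.13. Besides the genes of contractile muscle, *abu-14* of the pharyngeal list, *abu-8* and *T21B6.3* also rose, by 0.62, 1.26 and 1.23 on the log2 scale.

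The muscle counts were lower without 1 library. Without replicate 2 of *sid-1(tm2700)*, 2 of 9 body muscle genes, 2 of 6 pharyngeal genes, 6 of 10 myosins and giant proteins, 0 of 10 troponin and tropomyosin genes (4 at an unadjusted p under 0.05) and 0 of 18 basement membrane genes (7) passed the threshold by edgeR. The spread in that fit came from the rescued pair alone. The list medians stayed above 0, at 0.48 for body muscle, 0.33 for pharynx, 0.62 for myosins and giant proteins, 0.23 for troponin and tropomyosin and 0.27 for basement membrane and muscle attachment. *myo-1*, *myo-2*, *myo-5*, *unc-89* and *ketn-1* passed in each of the alternative fits that gave them an adjusted p.

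Transcript length moved with the comparison, and many of these muscle genes are long. The median transcript length of genes that rose was 1923 nucleotides, against 792 for genes that fell and 1139 for all genes tested. Among the 3659 genes with the longest transcripts, in 5 bins of equal size, 129 rose and 7 fell, and the median log2 fold change was 0.12. Among the 3659 with the shortest, 24 rose and 54 fell, and the median was -0.15. Replicates also differed by length, since the median log2 ratio of replicate 2 to replicate 1 ran from -0.04 in the shortest bin to 0.06 in the longest in *sid-1(tm2700)*, and from 0.12 to -0.10 in the rescued strain. With an offset for the length trend of each library, added after these values were seen, 489 genes changed, including 294 of the 379. Under that offset 6 of 9 body muscle genes, 4 of 6 pharyngeal genes and 9 of 10 myosins and giant proteins rose. The median of the body muscle list was 0.37 with the offset and 0.57 without it, that of the pharyngeal list 0.56 and 0.55, and that of the myosins and giant proteins 0.47 and 0.90. The basement membrane count was 4 of 18 with the offset, and its median was 0.14 with it and 0.37 without. The ribosomal protein genes, which have short transcripts, lay on the other side: only 1 of 78 had a log2 fold change above 0 and the median was -0.23, but only *rpl-29* passed the threshold (0.45 ± 0.12 lower on the log2 scale), and 0 passed under the offset (2 at an unadjusted p under 0.05), where the median was -0.12. Their summed level was 136000 and 139000 CPM in *sid-1(tm2700)*, against 157600 and 160300 CPM in the rescued strain. The part of length in these results was not otherwise tested.

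**Figure D3:**
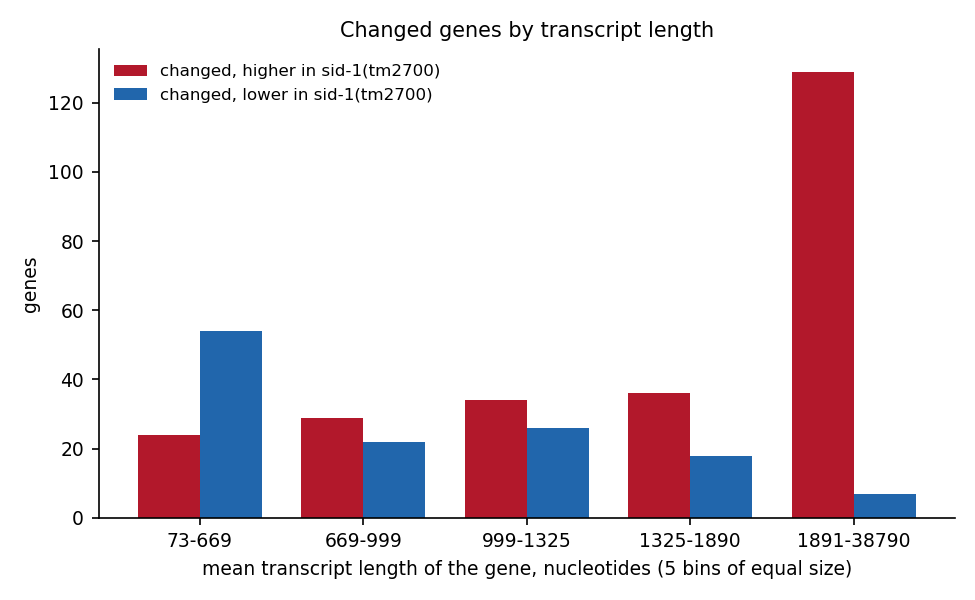
Number of changed genes (linear axis from 0) in 5 bins of equal size of the genes tested, ordered by mean transcript length in nucleotides. Red bars are genes higher in *sid-1(tm2700)* and blue bars are genes lower. The longest bin holds 129 higher and 7 lower genes, the shortest 24 higher and 54 lower.

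**Figure D4:**
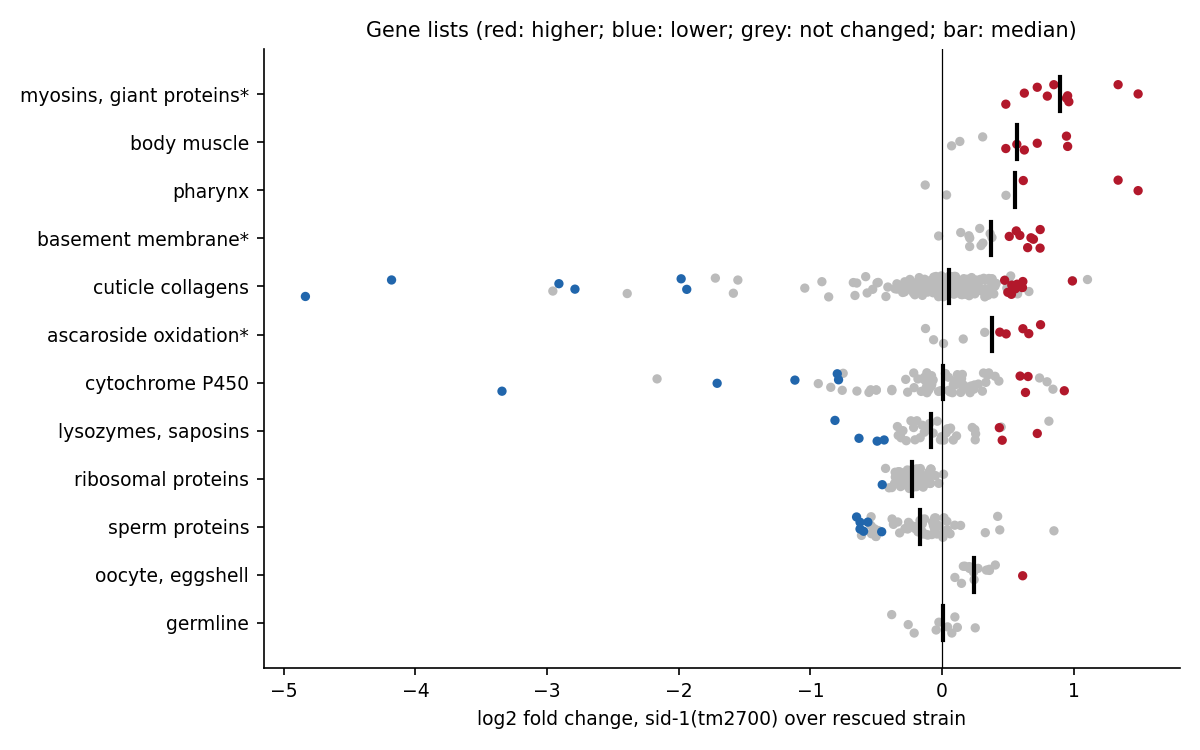
Log2 fold change of *sid-1(tm2700)* over the rescued strain for every tested member of 12 gene lists, 1 point per gene. Red and blue points changed (higher and lower), grey points did not pass the threshold, and black bars are list medians. Lists with an asterisk were assembled after the values were seen. The muscle lists lie right of 0 and the ribosomal proteins left of it, while cuticle collagens spread in both directions.

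The cuticle, an extracellular matrix made largely of collagens and rebuilt at each moult, gave changes in both directions. Of 163 cuticle collagens tested, 10 rose and 6 fell (9.82%, against 2.07% of all genes tested), and the median log2 fold change was 0.06. Those that rose included *bli-1*, *dpy-5*, *dpy-13*, *sqt-1* and *rol-6*, known from mutants with blistered, short or twisted bodies. *bli-1* had 8.37 and 6.99 CPM in *sid-1(tm2700)*, against 3.84 and 3.91 CPM in the rescued strain (0.99 ± 0.17, adjusted p = 0.000421 by edgeR). *dpy-5* had 38.6 and 36.6 CPM in *sid-1(tm2700)*, against 24.7 and 24.6 CPM in the rescued strain (0.61 ± 0.11, adjusted p = 0.0011 by edgeR). In wild type of the same set *bli-1* had 13.27 and 8.97 CPM and *dpy-5* had 66.2 and 56.5 CPM. There *dpy-13* had 78.3 and 58.35 CPM and *sqt-1* had 29.2 and 28.15 CPM. For these genes both wild-type libraries thus lay above all libraries of *sid-1(tm2700)* and the rescued strain, a difference that was not tested. *lon-1*, a secreted protein that acts in body length control, rose by 0.71 ± 0.12, and *clx-1* by 1.25 ± 0.12, with 33.9 and 37.8 CPM in *sid-1(tm2700)*, against 14.1 and 16.1 CPM in the rescued strain.

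The collagens that fell, *col-36*, *col-43*, *col-158*, *col-102*, *col-84* and *col-2*, were scarce in both strains. *col-36* had 0 and 0.209 CPM in *sid-1(tm2700)*, against 2.15 and 1.66 CPM in the rescued strain (adjusted p = 1.67e-06 by edgeR). *col-43* had 0.226 and 0.251 CPM in *sid-1(tm2700)*, against 1.92 and 1.74 CPM in the rescued strain (adjusted p = 7.47e-06 by edgeR). The cuticlin *cut-1* and the hedgehog-related gene *grl-25* fell with them, by 2.82 ± 0.61 and 2.73 ± 0.45 on the log2 scale. In *sid-1(qt9)* the same genes stood far above wild type, with *col-36* at 24.3 and 34.8 CPM in *sid-1(qt9)* and 1.80 and 1.2 CPM in wild type. The 2 contrasts therefore differed, and for *col-36* the change in *sid-1(tm2700)* over the rescued strain minus that in *sid-1(qt9)* over wild type was -8.46 (interaction term in edgeR, adjusted p = 2.6e-08). The collagen counts moved with single libraries, being 3 higher and 5 lower without replicate 2 of *sid-1(tm2700)*, and 23 higher and 12 lower without replicate 1 of the rescued strain. With the length offset they were 23 higher and 7 lower, and with all 8 libraries of the set in 1 fit they were 1 higher and 5 lower.

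Ascarosides are the secreted pheromones of nematodes, and their fatty acid side chains are shortened in peroxisomes by an acyl-CoA oxidase, an enoyl-CoA hydratase, a hydroxyacyl-CoA dehydrogenase and a thiolase in turn. In a list of 10 such genes assembled after the values were seen, 5 rose in *sid-1(tm2700)* and none fell, covering each of these steps. Of all genes tested 1.38% rose. The oxidase *acox-3* had 179.5 and 178.5 CPM in *sid-1(tm2700)*, against 101.2 and 112.1 CPM in the rescued strain (0.75 ± 0.11, adjusted p = 6.07e-05 by edgeR). The oxidase *acox-1.1* rose by 0.66 ± 0.12 and the hydratase *maoc-1* by 0.44 ± 0.11. The dehydrogenase *dhs-28* had 296.2 and 302.1 CPM in *sid-1(tm2700)*, against 210.9 and 216.4 CPM in the rescued strain (0.49 ± 0.11, adjusted p = 0.0113 by edgeR). The thiolase *daf-22* had 171.9 and 186.8 CPM in *sid-1(tm2700)*, against 113.0 and 121.6 CPM in the rescued strain (0.61 ± 0.11, adjusted p = 0.00101 by edgeR). For each of the 5 genes both *sid-1(tm2700)* libraries were above both rescued libraries. Genes that passed the threshold were likely to be so placed, and 43.4% of all genes tested did not overlap between the 2 strains. Summed over the list, the level was 1050 and 1090 CPM in *sid-1(tm2700)*, against 722 and 780 CPM in the rescued strain, and *sid-1(qt9)* (951 and 1180 CPM) and wild type (1130 and 1110 CPM) were near *sid-1(tm2700)*. The rescued strain thus held the lowest values of these 4 strains. Without replicate 2 of *sid-1(tm2700)* only 1 of the 10 passed the threshold, and without replicate 1 of that strain 3 did.

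Wider lists of lipid metabolism were counted as well. Of desaturases and elongases 12.5% changed and of lipase and fat storage genes 2.56%, against 2.07% of all genes tested. Of 16 desaturases and elongases, 2 rose and none fell, namely the delta-9 desaturases *fat-7* (0.68 ± 0.12) and *fat-5* (0.51 ± 0.11), while 4 of the 16 had a log2 fold change above 0 and the median was -0.06. Of 39 lipase and fat storage genes none rose and only *lipl-2* fell (median 0.02), which did not pass when either *sid-1(tm2700)* library was left out. None of 12 propionate and vitamin B12 genes changed by edgeR (4 at an unadjusted p under 0.05), limma with voom or DESeq2. Among single genes chosen after their values were seen, *acs-7*, an acyl-CoA synthetase, had 134.7 and 134.8 CPM in *sid-1(tm2700)*, against 74.3 and 83.0 CPM in the rescued strain (0.78 ± 0.11, adjusted p = 3.45e-05 by edgeR). *suca-1*, a subunit of succinyl-CoA synthetase, rose by 0.76 ± 0.11, with 149.1 and 167.5 CPM in *sid-1(tm2700)*, against 96.6 and 91.2 CPM in the rescued strain.

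Detoxification genes changed in both directions. Of 72 cytochrome P450 genes, 4 rose and 5 fell (12.5%, against 2.07% of all genes tested), and the median log2 fold change was 0.01. *cyp-35B2* had 0.226 and 0.042 CPM in *sid-1(tm2700)*, against 1.83 and 1.12 CPM in the rescued strain (adjusted p = 4.89e-05 by edgeR). Its neighbour *cyp-35B1* had 2.49 and 2.13 CPM in *sid-1(tm2700)*, against 4.84 and 5.22 CPM in the rescued strain (-1.12 ± 0.20, adjusted p = 0.000511 by edgeR). *cyp-29A4* fell by 1.71 ± 0.25 on the log2 scale, and *cyp-33A1* and *cyp-35A3* also fell. *cyp-13A12* rose by 0.93 ± 0.13, with 26.6 and 30.4 CPM in *sid-1(tm2700)*, against 14.2 and 15.8 CPM in the rescued strain, joined by *cyp-25A3*, *cyp-13A5* and *cyp-13B1*. Of 66 UDP-glucuronosyltransferases, which conjugate small molecules, 3 fell and none rose (4.55%), led by *ugt-43* (-0.87 ± 0.16), and none passed without replicate 2 of *sid-1(tm2700)* (6 at an unadjusted p under 0.05 by edgeR). The metallothionein *mtl-2* fell by 0.58 ± 0.11, and the small heat shock gene *hsp-16.41* had 0.566 and 0.251 CPM in *sid-1(tm2700)*, against 2.01 and 1.90 CPM in the rescued strain (adjusted p = 1e-04 by edgeR).

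Among genes of innate immunity the C-type lectin *clec-52* stood out, with 53.2 and 58.8 CPM in *sid-1(tm2700)*, against 133.4 and 160.0 CPM in the rescued strain (-1.39 ± 0.12, adjusted p = 6.52e-10 by edgeR). Wild type had 85.6 and 76.8 CPM and thus lay between the 2 strains. Of 154 C-type lectins tested, 3 rose and 2 fell (3.25%, near the 2.07% of all genes tested). Of 40 lysozyme and saposin-like genes, which encode antibacterial enzymes and peptides, 3 rose (*lys-7*, *ilys-3* and *spp-27*) and 4 fell (*spp-1*, *spp-3*, *spp-5* and *spp-6*). These were 17.5% of the list. *spp-5* had 950.0 and 992.9 CPM in *sid-1(tm2700)*, against 1296 and 1441 CPM in the rescued strain (-0.49 ± 0.11, adjusted p = 0.0116 by edgeR), and *lys-7* had 205.4 and 189.6 CPM in *sid-1(tm2700)*, against 154.2 and 138.1 CPM in the rescued strain (0.44 ± 0.11, adjusted p = 0.0323 by edgeR). Without replicate 1 of *sid-1(tm2700)* none of the 40 passed the threshold by edgeR (8 at an unadjusted p under 0.05), and without replicate 2 of that strain 2 did.

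Genes of RNA interference were counted by step of the pathway, beside the 2.07% of all genes tested that changed. Of 8 genes of double-stranded RNA transport only *sid-1* itself changed (12.5%). Among 18 secondary Argonaute and nuclear RNA interference genes (5.56%) only *sago-2*, an Argonaute that binds secondary small RNAs, changed, with 7.62 and 7.99 CPM in *sid-1(tm2700)*, against 4.48 and 3.13 CPM in the rescued strain (log2 fold change 1.049 ± 0.179, adjusted p = 0.000367 by edgeR). None of 18 genes of double-stranded RNA processing changed by edgeR, with 2 at an unadjusted p under 0.05, and limma with voom and DESeq2 also called 0. None of 12 genes of small RNA amplification changed by edgeR, with 1 at an unadjusted p under 0.05, and the other tools called 0. None of the tools called any of 21 genes of the piRNA pathway and P granules, of which 1 was at an unadjusted p under 0.05 in edgeR. The study listed genes for its new *sid-1* alleles, and of 20 of them tested here 3 fell and none rose (15%, median -0.05). These were *sid-1*, *C24H11.2* of the uncertain pair above, and *ZC204.14*, which was picked out after its values were seen and had 7.13 and 6.45 CPM in *sid-1(tm2700)*, against 9.497 and 11.14 CPM in the rescued strain (log2 fold change -0.60 ± 0.15, adjusted p = 0.0239 by edgeR). Without replicate 1 of *sid-1(tm2700)* 1 of 18 passed the threshold, and DESeq2 called 1. Neither *sdg-1* nor *sdg-2* passed the threshold. *sdg-1* (entry *F07B7.2*) had 0.980 and 1.09 CPM in *sid-1(tm2700)*, against 1.19 and 1.47 CPM in the rescued strain, a difference of -0.37 ± 0.30 (adjusted p = 0.631 by edgeR). *sdg-2* (*Y102A5C.36*) had 3.92 and 5.02 CPM in *sid-1(tm2700)*, against 4.34 and 6.08 CPM in the rescued strain, and these ranges overlapped. Wild type of the same set lay below both strains for *sdg-2*, at 1.527 and 1.199 CPM. For *sdg-1* wild type was near both strains, at 1.331 and 1.155 CPM. *sdg-2* was higher in *sid-1(qt9)* than in wild type (log2 fold change 2.04 ± 0.25, adjusted p = 1.72e-05 by edgeR). Neither *sid-1(tm2700)* nor the rescued strain was itself tested against wild type.

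Markers of stage and tissue varied between replicates of the rescued strain. Of 14 oocyte and eggshell genes all had a log2 fold change above 0 (median 0.24), but only *cpg-1*, a chondroitin proteoglycan of the eggshell, passed the threshold (0.61 ± 0.14, adjusted p = 0.00701 by edgeR). The summed level of the 14 was 7902 and 8131 CPM in *sid-1(tm2700)*, against 7450 and 5511 CPM in the rescued strain, so replicate 2 of the rescued strain was the low library. Without replicate 1 of that strain 12 of the 14 passed. Of 60 sperm genes 6 fell and none rose (median -0.17), but none fell without replicate 1 of *sid-1(tm2700)* (9 at an unadjusted p under 0.05) and 1 fell without replicate 2 of that strain. The 6 were 10% of the sperm genes, against 2.07% of all genes tested that changed. With the length offset 2 rose and 1 fell, and the median was -0.01. With lengthScaledTPM counts and with all 8 libraries in 1 fit none passed by edgeR (18 and 15 at an unadjusted p under 0.05). The sperm genes summed to 662.3 and 724.7 CPM in *sid-1(tm2700)*, against 791.9 and 782.4 CPM in the rescued strain, and spanned 552.2 to 857.2 CPM in wild type. None of 10 germline genes changed by edgeR (3 at an unadjusted p under 0.05), none of 6 vitellogenins (1), none of 9 early embryo genes (0) and none of 10 neuron genes (2). DESeq2 called 1 of the neuron genes and 0 of the others, and limma with voom called 0 in all 4 lists. In whole animals a lower share of a tissue and less RNA per cell cannot be told apart, and the part of stage composition in the other results was not tested.

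A few regulators changed as single genes. *sdc-3*, a zinc finger protein that brings the dosage compensation complex to the X chromosomes, had 33.2 and 35.1 CPM in *sid-1(tm2700)*, against 15.8 and 12.88 CPM in the rescued strain (1.26 ± 0.13, adjusted p = 2.59e-08 by edgeR). *dpy-27*, a condensin subunit of the same complex, rose by 0.45 ± 0.11. The call of *dpy-27* was lost in 5 alternative fits and kept in 8. With the length offset its adjusted p was 0.284 by edgeR. In a list of 10 genes of the complex assembled after the values were seen, the other 8 did not pass the threshold. Of all genes tested 1.38% rose. *daf-7*, a TGF-beta ligand made in sensory neurons, rose by 0.77 ± 0.15, with 16.3 and 17.8 CPM in *sid-1(tm2700)*, against 7.81 and 12.1 CPM in the rescued strain. *daf-28*, an insulin-like peptide, was close to the threshold (0.92 ± 0.25, adjusted p = 0.0474 by edgeR) and was above it in 7 of the 12 alternative fits that gave it an adjusted p. The mitochondrial entry *MTCE.25* had 428.7 and 382.8 CPM in *sid-1(tm2700)*, against 791.8 and 789.1 CPM in the rescued strain (-0.96 ± 0.12, adjusted p = 1.14e-06 by edgeR). Of the genes known only by sequence names, *F10D2.8* fell to 2.26 and 2.85 CPM in *sid-1(tm2700)*, against 9.999 and 10.68 CPM in the rescued strain, and wild type had 0.822 and 1.29 CPM. *Y68A4A.13* had 15.7 and 17.2 CPM in *sid-1(tm2700)*, against 3.84 and 5.76 CPM in the rescued strain.

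The changed genes lay on every chromosome. The X chromosome had the largest share among the nuclear chromosomes, 68 of 2518 genes tested (2.7%), of which 56 rose and 12 fell, and chromosome V had 106 of 4103 (2.58%), against 1.58% to 1.91% on the others. The median log2 fold change of X genes was 0.05. Neighbouring genes that changed in the same direction formed 21 runs, mostly pairs. The longest held 5 genes on chromosome I (7723756 to 7737995) that were all lower in *sid-1(tm2700)*. They were *F27D4.7*, *F27D4.4*, *bckd-1B*, *F27D4.8* and *F27D4.6*, with log2 fold changes of -0.80, -0.51, -0.72, -0.91 and -0.65. *F27D4.4* lost its call in 3 alternative fits, where its log2 fold change stayed within -0.58 to -0.426, and *F27D4.6* in 1. The calls of *F27D4.7*, *bckd-1B* and *F27D4.8* were kept in all 13. *bckd-1B*, a subunit of the branched-chain alpha-keto acid dehydrogenase, had 81.9 and 87.4 CPM in *sid-1(tm2700)*, against 142.1 and 138.0 CPM in the rescued strain, with 80.3 and 74.1 CPM in wild type. The genes on either side did not change (*F27D4.3*, adjusted p = 0.867, and *F58H10.1*, adjusted p = 0.904, by edgeR). All 5 genes thus matched wild type more closely in *sid-1(tm2700)* than in the rescued strain. On the X chromosome, *pfk-1.1* (phosphofructokinase), *Y41G9A.10* and *Y41G9A.5* formed a run of 3 higher genes (2940872 to 2949026). *pfk-1.1* lost its call in 3 alternative fits, and the other genes of this run kept theirs in all 13. *Y41G9A.5* had 8.82 and 9.04 CPM in *sid-1(tm2700)*, against 3.52 and 4.02 CPM in the rescued strain and 3.84 and 3.60 CPM in wild type.

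**Figure D5:**
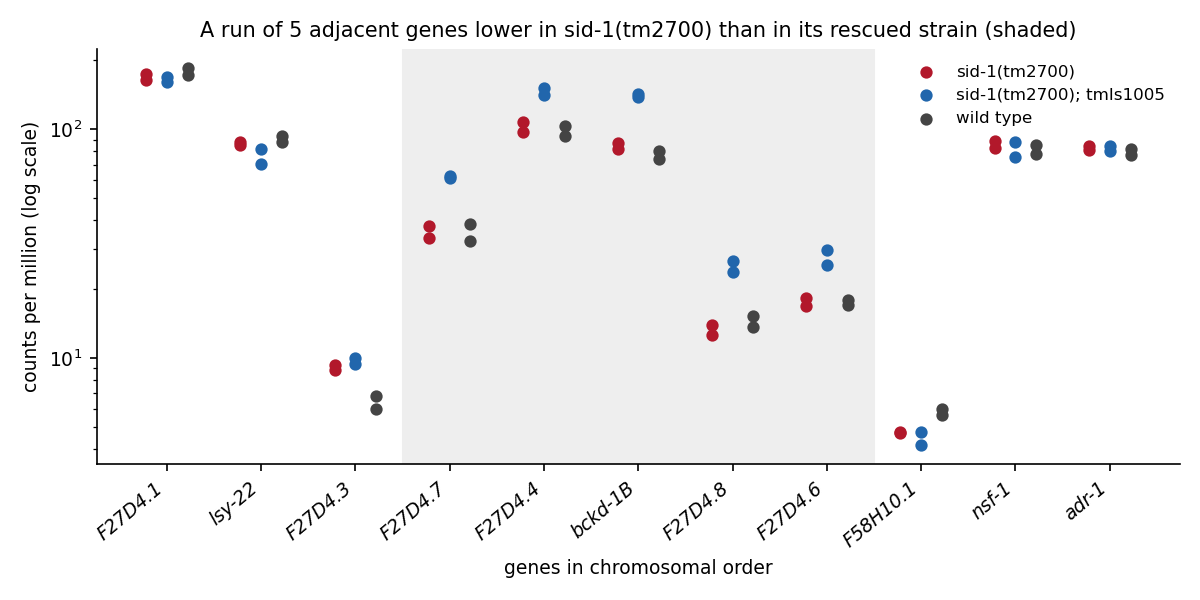
CPM (log axis) of 11 consecutive genes in chromosomal order on chromosome I, with 2 points per strain for *sid-1(tm2700)*, the rescued strain and wild type. The 5 shaded genes are higher in both rescued libraries than in *sid-1(tm2700)* and wild type. The genes on both sides did not pass the threshold. Of these, *F27D4.3* was also slightly higher in the rescued strain, with 9.36 and 9.94 CPM, against 8.86 and 9.33 CPM in *sid-1(tm2700)* and 5.95 and 6.79 CPM in wild type.

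Wild type of the same set places each changed gene. Of the 379 changed genes, *sid-1(tm2700)* was nearer to wild type for 282 (74.4%) and the rescued strain for 97 (25.6%), measured by the distance between mean log2(CPM + 0.5), against 59.6% and 40.4% of all genes tested. In 163 of the changed genes only the rescued strain had values that did not overlap with wild type, and in 38 only *sid-1(tm2700)* did. In 167 both strains lay apart from wild type and in 11 neither did. Of all 18293 genes tested, only the rescued strain lay apart in 4047 and only *sid-1(tm2700)* in 3157. Both did in 4025 and neither in 7064. The changed genes were chosen by the contrast of these strains, so their counts are a description only. *T28A11.2*, *T08B2.4*, *vps-45*, *acox-3* and the 5 genes of the chromosome I run were nearer to wild type in *sid-1(tm2700)*. By contrast, *Y41G9A.5* and *clx-1* were nearer to wild type in the rescued strain, where *clx-1* had 14.1 and 16.1 CPM and wild type had 4.46 and 6.84 CPM.

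The changed genes were then followed in other *sid-1* mutants, each against its own wild type. In *sid-1(qt9)*, 336 of 18273 genes tested (1.84%) changed, and 79 of them were among the 379 (20.8% of the 379 and 23.5% of the 336). The study compared the same 2 pairs of strains with limma and voom and reported no significantly changed gene in common. Why the 2 results differ was not tested. Of these 79 genes, 60 moved in the same direction. They included *sid-1*, *clec-52*, *mtl-2* and the muscle genes *myo-2*, *myo-3*, *unc-54* and *unc-22*. The other 19 moved in the opposite direction, including all 6 collagens that fell. The muscle genes just named have mean transcript lengths of 6105 to 21235 nucleotides, against a median of 1139 for all genes tested. The length offset was not fitted to the *sid-1(qt9)* contrast, so the part of length in this overlap was not tested. In *sid-1(jam113)*, 33 of 16783 genes (0.197%) changed and 5 of them were among the 379. *sid-1* and *fat-5* moved in the same direction there, and *C24H11.2*, *fbxa-192* and *lys-7* in the opposite one. In *sid-1(jam80)*, 11 of 16547 genes (0.0665%) changed and 2 were among the 379, *sid-1* in the same direction and *fbxa-192* in the opposite one. *sid-1* was thus the only gene that changed in the same direction in all 4 contrasts. The difference between contrasts was itself past the threshold for 121 of 18837 genes (0.642%) with *sid-1(qt9)* and for 34 of 18558 genes (0.183%) with *sid-1(jam113)*, by an interaction term in edgeR. In both interactions the reference differed, being the rescued strain for *sid-1(tm2700)* and wild type for the other allele. Reference strain and allele thus cannot be told apart in either. The *jam113* libraries also belonged to another set, so set cannot be told apart from these in that interaction.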

How the data were processed

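PolyA+ RNA of 2 replicates per strain was sequenced. The authors trimmed reads with cutadapt (quality 20, minimum length 20) and quantified transcripts with salmon, letting salmon detect the library type. Whether the libraries kept strand is not given in the sources used here, so reads of overlapping antisense genes may be shared. The deposited values are estimated counts and TPM per transcript. Estimated counts, which were not normalized, were summed per gene with the WBcel235 annotation of Ensembl release 115 (the authors used release 101), so 35749 transcripts gave 21982 entries (88 transcripts unmatched), and rounded. The deposited TPM were used for single transcripts and for 1 alternative.

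Genes above 0.1 CPM in at least 2 libraries (3 in the plate-grown sets) were tested after TMM normalization with edgeR 4.0.16 (quasi-likelihood test, R 4.3.3) on the libraries compared, with Benjamini-Hochberg adjustment. The authors' filter and threshold of 0.05 were kept. SE was the log2 fold change divided by the root of F. Replicates of 1 strain differed by more than sampling noise. The comparisons were repeated with voom in limma 3.58.1, with DESeq2 1.42.0, and in edgeR with upper-quartile normalization, no filter, filterByExpr, lengthScaledTPM counts, the replicate number as a block, all 8 libraries in 1 fit, each library left out, or calls kept only from a log2 fold change of 1. A length offset was added after the data were seen. Depth limited the precision of genes near 0.1 CPM.

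Members and gene lists were chosen with earlier results of these data known. Named genes were the array and study genes, the 12 largest changes and 5 smallest p in each direction, up to 4 members of each list, runs and genes absent from 1 strain. Others named (among them *sdc-3*, *acs-7*, *suca-1*, *dpy-27* and the ascaroside genes) were chosen after their values were seen. Genes the rule names but no sentence describes are covered by the counts.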

Additional observations from a re-analysis of the deposited data

Results flagged for a closer look

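The change in *sid-1(tm2700)* over the rescued strain differed from the change in *sid-1(qt9)* over wild type for 121 genes, and from the change in *sid-1(jam113)* over wild type for 34 genes, each by an interaction term at an adjusted p under 0.05 in edgeR. Values below are differences of log2 fold changes, so a negative value means a lower change in *sid-1(tm2700)* over the rescued strain.

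Against *sid-1(qt9)*, the genes of the array and those nearly absent from the rescued strain differed, with -3.94 for *vps-45*, 10.27 for *T28A11.2*, 8.22 for *T28A11.25* and 6.78 for *T08B2.4*. The last 3 depend on the prior count, since the rescued libraries hold 2 reads or fewer. The cuticle genes formed the second group, with -9.65 for *col-84*, -8.46 for *col-36*, -7.85 for *col-43*, -6.16 for *col-158*, -10.13 for *cut-1* and -7.95 for *grl-25*. Entries of the uncertain pairs differed too, with -9.54 for the *his-58* entry, 12.22 for *C24H11.1* and -3.58 for *C24H11.2*. The values of the *his-58* entry and *C24H11.1* depend on the prior count as well. The *his-58* entry had 0 reads in both *sid-1(tm2700)* libraries, and *C24H11.1* had 0 reads in both *sid-1(qt9)* libraries. The metabolic genes differed by less, with 0.84 for *acs-7*, 0.81 for *acox-3*, 0.74 for *acox-1.1*, 1.13 for *fat-7*, 0.75 for *fat-5* and 0.78 for *cyp-13A12*. The genes in runs gave -0.74 for *bckd-1B*, -0.86 for *F27D4.8*, 1.41 for *Y41G9A.10* and 1.2 for *Y41G9A.5*. Among single genes the difference was 1.09 for *sdc-3*, 1.57 for *daf-7*, 0.99 for *lon-1*, -0.83 for *MTCE.25*, 2.57 for *Y68A4A.13* and -2.26 for *sdg-2* (*Y102A5C.36*).

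Against *sid-1(jam113)*, *sid-1* itself differed by 4.24, *F14F9.5* by -3.09 and *sdg-1* (*F07B7.2*) by -4.16. In *sid-1(jam113)* over its wild type these genes had log2 fold changes of -5.32, 3.06 and 3.82. The array and absent genes gave -3.90 for *vps-45*, 9.88 for *T28A11.2*, 8.42 for *T28A11.25* and 7.14 for *T08B2.4*. All of the ascaroside genes that rose differed, with 1.47 for *acox-3*, 0.92 for *acox-1.1*, 1.16 for *maoc-1*, 1.01 for *dhs-28* and 1.07 for *daf-22*, as did *acs-7* with 1.81. The remaining differences were 1.29 for *sdc-3*, -0.84 for *bckd-1B*, -1.35 for *fbxa-192*, 0.99 for *lys-7*, -5.01 for *col-43*, -2.47 for *cyp-29A4*, -2.12 for *F10D2.8*, -11.76 for *C24H11.2* and -11.50 for the *his-58* entry. *C24H11.2* had a mean of 0 CPM in the wild type of *sid-1(jam113)*, so its value depends on the prior count. The same holds here for the *his-58* entry, *T28A11.2*, *T28A11.25* and *T08B2.4*. Reference strain, culture, set and allele cannot be told apart in the comparison with *sid-1(jam113)*, nor reference strain and allele in that with *sid-1(qt9)*.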

How the results depend on the processing

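The 379 changed genes (252 higher, 127 lower) kept their direction wherever an alternative tested them. DESeq2 called 234 genes (63 lower), no filter 611 (408 higher, 203 lower), lengthScaledTPM counts 166 (99 higher, 67 lower), all 8 libraries in 1 fit 191 (128 higher, 63 lower) and the requirement of a log2 fold change of 1 or more left 71 (43 higher, 28 lower). Leaving out 1 library gave 110 to 1532 genes (69 to 970 higher, 41 to 562 lower). The cause of these shifts was not tested, apart from the smaller fits and the stricter threshold by construction. Members of the lists called changed numbered 92, against 52 by DESeq2, 42 with lengthScaledTPM counts, 49 with all 8 libraries, 27 under the fold requirement, and 38 to 247 with 1 library left out. The difference from *sid-1(qt9)* was called for 121 genes, against 303 with no filter, and 61 to 241 with 1 library left out. The difference from *sid-1(jam113)* was called for 34 genes, against 185 by DESeq2, 61 with no filter, and 13 to 906 with 1 library left out. *sid-1* passed in every alternative, with 1 library left out at -1.21 to -0.98 on the log2 scale. *sdg-2* ran from -0.438 to 0.038, without a call in any of them.

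The numbers of the replicates come from the labels and nothing ties equal numbers together (correlation of deviations 0.018 over 1 pairing of strains). With the replicate block 293 genes changed, and the difference from *sid-1(qt9)* was called for 185 genes. Of 77 further named genes past the threshold, 37 lost their call in at least 1 alternative and none reversed. Genes absent from a strain could not be tested once the other strain had 1 library.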
